A study of Mus musculus with 6 samples.

Results

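The p53 target genes were followed in 6 arrays, 3 of VPA-treated and 3 of control murine prostate cancer cells. They are genes reported as targets of the transcription factor p53 or as parts of its family and feedback loops. They were taken as a list of 34 symbols in which p53's own gene, Trp53, was included. A symbol was kept where a probe set of the array was annotated with exactly 1 gene symbol, and the probe set with the highest mean over the 6 arrays stood for the gene. This gave 31 measured genes among 19938 genes in all. Trp53, Gdf15 and Fdxr had no such probe set and were not analysed here, so the values below do not include p53's own gene.

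VPA is valproic acid, a short-chain fatty acid given against epilepsy that inhibits class I histone deacetylases. The samples titled VPA and control were labelled biological replicates 1 to 3, and their total RNA was measured on Affymetrix mouse Gene 1.0 ST arrays, 1 a sample. The titles and the series design name prostate cancer cells, whereas other labels of the same samples name embryonal stem cells. There the VPA samples are undifferentiated stem cells of strain Stra8-EGFP/Rosa26 and the control samples are differentiated stem cells of strain 129SV, so treatment and these labelled strains and states divide the samples alike and cannot be told apart. For the cell line, its p53 status, the dose and the time of treatment, nothing is given in the sources used here.

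Marker genes were set against these labels. Of the pluripotency genes, Pou5f1 had log2 values from 4.99 to 5.50 in VPA and from 5.47 to 5.86 in control arrays, and Nanog from 6.08 to 6.21 in VPA and from 6.21 to 6.56 in control arrays. Zfp42 lay between 4.13 and 4.27 in VPA and between 4.24 and 4.43 in control arrays. Sox2, by contrast, lay between 10.98 and 11.53 in VPA and between 11.48 and 11.71 in control arrays. Of the prostate genes, Pbsn, the probasin gene, lay between 3.41 and 3.56 in VPA and between 3.41 and 3.76 in control arrays, and Hoxb13 between 7.86 and 8.04 in VPA and between 7.86 and 7.89 in control arrays. In mean level over the 6 arrays, Zfp42, Pou5f1 and Nanog stood at the 4.29, 14.0 and 27.3 percentiles of all genes. Sox2 stood at 94.3, Pbsn at 1.48 and Hoxb13 at 53.8. The values carry no call of presence or absence, and neither the labelled stem cell state nor a prostate identity was tested with these genes. The 12 pluripotency markers averaged 6.75 to 6.86 in VPA and 6.91 to 7.05 in control arrays, 2 of 12 had the higher mean in VPA arrays, against 41.4% of all genes, and 0 passed limma's test described below. At an unadjusted p under 0.05, 4 of the 12 (33.3%) were lower, against 8.3% of all genes. The median level of these markers was 6.35, against 7.59 over all genes, so the shares over all genes are not matched for level. The part of these markers in the results was not tested. No marker of germ cells, luminal or basal epithelium, prostate, mesenchyme, leukocytes or endothelium passed that test, and 1 luminal and 1 mesenchymal marker had an unadjusted p under 0.05.

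p53 is kept at a low level in unstressed cells by the ubiquitin ligase Mdm2 and its partner Mdm4. After DNA damage or other stress it accumulates, binds its response elements and raises genes that halt the cell cycle, repair DNA, adjust metabolism or lead to cell death. Mdm2 and the phosphatase gene Ppm1d are themselves targets and close negative feedback loops. Several of the targets also answer to other transcription factors.

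Ddb2 and Dram1 rose with VPA, by 1.52-fold and 1.42-fold, and the other 29 of the 31 p53 target genes did not pass. The test was limma's moderated test of the VPA minus control difference of log2 values, fitted to all 19938 genes, with a Benjamini-Hochberg adjusted p under 0.05 as the threshold. Over all genes 1.71% rose and 0.632% fell, 2.34% in either direction. No member fell by this test, while 2 were lower at an unadjusted p under 0.05. When only the 15581 genes with log2 values of at least 6 in at least 3 arrays were tested, 464 rose and 181 fell. That is 4.14% in either direction, and all 31 members were among the genes kept, with the same 2 called. Ddb2 encodes the subunit of a ubiquitin ligase complex that recognises ultraviolet damage in DNA, and Dram1 encodes a lysosomal membrane protein that promotes autophagy. In human cells DDB2 and DRAM1 are direct targets of p53, and in mouse cells the response of Ddb2 to p53 has been reported to be weak or absent. As RNA of many cells was pooled in each sample, more expressing cells and more RNA per cell cannot be told apart.

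Ddb2 (probe set 10484999) had log2 values of 8.74, 8.85 and 8.66 in VPA replicates 1, 2 and 3, against 8.11, 8.31 and 8.04 in control replicates 1, 2 and 3. All VPA values lay above all control values, and the highest control value, that of replicate 2, was 0.35 below the lowest VPA value. The means were 8.75 ± 0.09 with VPA and 8.15 ± 0.14 in control (SD, n = 3 each), a difference of 0.60 (SE 0.101) or 1.52-fold (95% interval 1.30 to 1.77), and limma's adjusted p was 0.0222. Dram1 (probe set 10371607) had values of 9.51, 9.27 and 9.23 in VPA replicates 1, 2 and 3, against 8.91, 8.77 and 8.83 in control replicates 1, 2 and 3. Here VPA replicate 1 stood above the other VPA arrays and the controls lay close together. The means were 9.34 ± 0.15 with VPA and 8.84 ± 0.07 in control (SD, n = 3 each), a difference of 0.50 (SE 0.0994) or 1.42-fold (95% interval 1.21 to 1.65), and limma's adjusted p was 0.0367. With 3 arrays against 3, an exact permutation test of such separated values could not have given a two-sided p below 0.1. Ddb2 lost its call without VPA replicate 1, VPA replicate 2, control replicate 1 or control replicate 3 (limma adjusted p 0.0819, 0.0915, 0.0989 or 0.079). Dram1 was no longer called when 1 array was left out, unless that array was VPA replicate 3 (0.125 and 0.102 without VPA replicates 1 and 2, and 0.105, 0.0679 and 0.108 without control replicates 1, 2 and 3). With VPA replicate 3 left out, Dram1 stayed called at 0.0286.

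**Figure D1:**
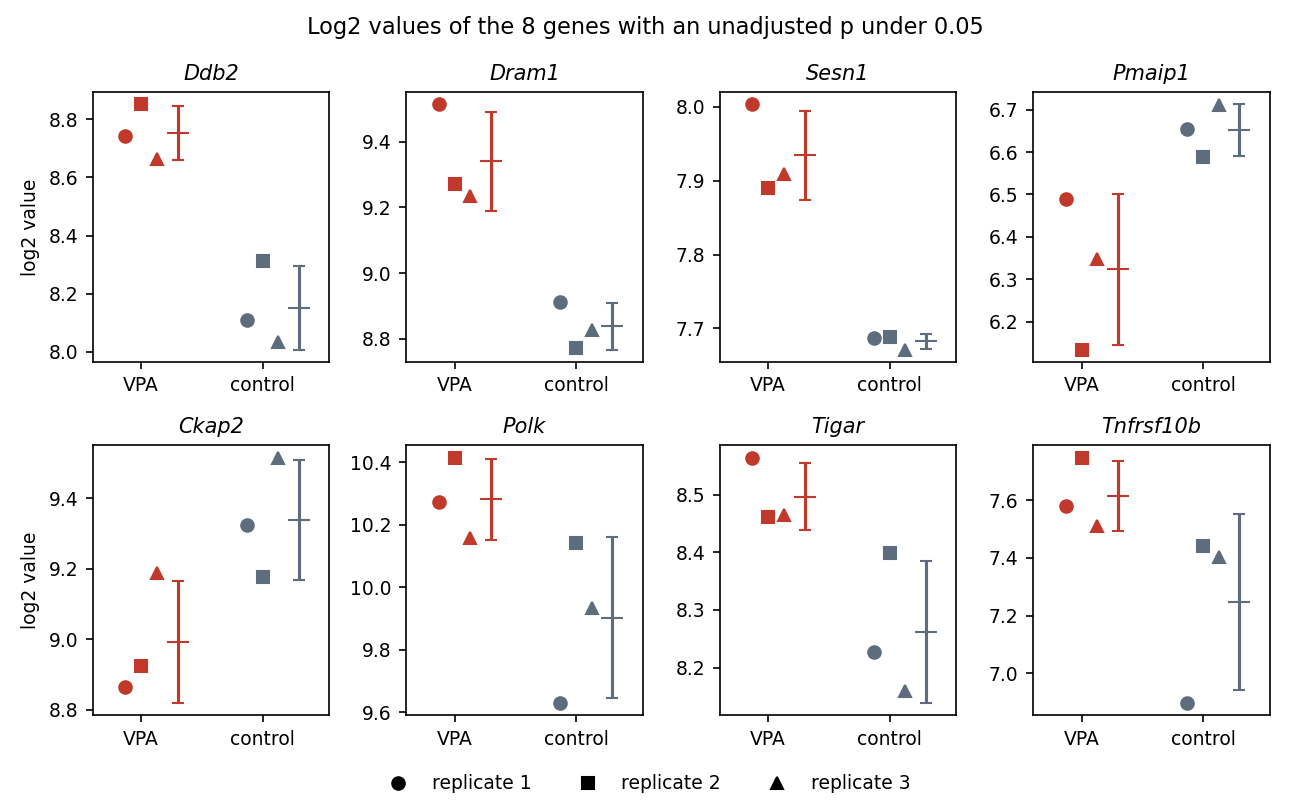
Log2 values in each array for the 8 p53 target genes with an unadjusted p under 0.05, VPA left and control right in each panel. Symbols stand for replicates 1 to 3 and the bar beside them for the mean ± SD, and each panel has its own vertical range. Ddb2, Dram1, Sesn1, Polk, Tigar and Tnfrsf10b have all VPA arrays above all control arrays, Pmaip1 has them below, and the groups of Ckap2 overlap.

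The sequence upstream of the start of Dram1 is shown as that of the called gene with an entry in the RefSeq promoter table (build GRCm38.p6), and those of Sesn1 and Ckap2 as the genes with the next smallest p that had one. The 250 bases before each start are written 5′ to 3′ on the gene's strand. Capitals mark every exact match to the p53 consensus decamer, the unit that occurs as a pair in a p53 response element, to GGGCGG, the box bound by Sp1 family factors, and to CCAAT, the box bound by NF-Y, each searched on both strands. Neighbouring matches run together where they overlap.
Dram1, chr10:88357076-88357325, minus strand: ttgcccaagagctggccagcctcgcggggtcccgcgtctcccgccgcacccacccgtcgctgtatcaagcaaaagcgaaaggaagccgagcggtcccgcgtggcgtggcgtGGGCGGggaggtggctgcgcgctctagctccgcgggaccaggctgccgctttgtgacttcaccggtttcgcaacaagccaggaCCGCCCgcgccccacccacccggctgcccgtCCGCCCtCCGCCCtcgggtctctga
Sesn1, upstream start, chr10:41810324-41810573, plus strand: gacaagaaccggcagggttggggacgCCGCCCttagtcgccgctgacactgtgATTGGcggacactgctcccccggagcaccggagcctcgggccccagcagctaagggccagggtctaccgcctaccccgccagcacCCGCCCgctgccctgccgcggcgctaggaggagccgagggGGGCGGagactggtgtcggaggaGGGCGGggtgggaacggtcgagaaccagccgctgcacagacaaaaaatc
Sesn1, downstream start, chr10:41887189-41887438, plus strand: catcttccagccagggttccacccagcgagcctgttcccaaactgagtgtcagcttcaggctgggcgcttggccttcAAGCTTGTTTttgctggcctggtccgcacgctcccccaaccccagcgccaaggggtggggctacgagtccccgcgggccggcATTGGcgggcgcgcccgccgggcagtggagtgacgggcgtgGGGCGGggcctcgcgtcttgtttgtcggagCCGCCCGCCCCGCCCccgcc
Ckap2, chr8:22185820-22186069, minus strand: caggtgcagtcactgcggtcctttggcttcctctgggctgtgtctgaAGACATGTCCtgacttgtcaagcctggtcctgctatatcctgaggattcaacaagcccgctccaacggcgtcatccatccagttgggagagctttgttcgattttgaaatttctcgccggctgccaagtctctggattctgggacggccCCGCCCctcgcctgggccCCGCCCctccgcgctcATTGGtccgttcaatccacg

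The Dram1 sequence held 4 GGGCGG matches and no exact decamer. Each Sesn1 start had 4 GGGCGG matches, and the downstream start also had the decamer aagCTTGttt, in which the capitals mark the core, at position -173 from the start. Ckap2 had the decamer agaCATGtcc at position -203 and 2 GGGCGG matches. Both Sesn1 starts and Ckap2 had 1 CCAAT match each and Dram1 had none. Over windows of 300 bases, 250 before and 50 after each start, 24 of the 31 measured genes had an entry, with 32 windows between them. An exact decamer was found in 10 of these windows (31.2%), against 7.35% of the 19177 windows of genes tested here. These 10 windows belong to 9 genes, as the overlapping windows of Aen hold the same match. GGGCGG was found in 71.9% of the members' windows against 49.2%, CCAAT in 50% against 37.4%, and a decamer with up to 1 mismatch in 71.9% against 67.2%. A window could hold several of these motifs. A match describes letters and is not a binding site. The members were listed as p53 targets, so a larger share with the decamer could come from that choice and says nothing about VPA.

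The exact decamers of the other members are given so that their letters can be compared. The core is in capitals, and the position is that of the first base relative to the start.
Gadd45a, position -40: gggCTAGccc
Aen, position -121 from the downstream of its starts: gggCTTGtcc
Ei24, position -10: gggCATGccc
Mdm2, position -186: gaaCTTGcct
Ccng1, position -185: gggCAAGcct
Ppm1d, position -132: gagCTTGctc
Polk, position -231 from the downstream of its starts: gaaCTAGcct
None of these 7 genes passed the test of the VPA minus control difference, and their adjusted p ran from 0.173 for Polk to 0.631 for Aen.

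Among the 4 measured genes of the p53 family and its feedback loops, none passed, also at an unadjusted p under 0.05. Mdm2, the ubiquitin ligase that degrades p53, had log2 values of 11.57, 11.78 and 11.72 in VPA arrays and 11.48, 11.71 and 11.30 in control arrays. Control replicate 2 lay among the VPA values, and the difference was 0.19 (SE 0.116, 95% interval -0.07 to 0.45, limma adjusted p = 0.411). Mdm4, which blocks p53's activation domain, had values of 9.17, 9.32 and 9.12 in VPA arrays and 9.43, 9.54 and 9.08 in control arrays. Control replicate 3 was the lowest of all 6, and the difference was -0.15 (SE 0.125, interval -0.43 to 0.13, adjusted p = 0.562). Ppm1d, the phosphatase that dephosphorylates p53 and its kinases, averaged 10.93 ± 0.06 with VPA and 10.81 ± 0.05 in control (SD, n = 3 each). Its groups were separated by 0.0011 and the adjusted p was 0.466. Trp73, the p53 paralog p73, averaged 6.75 ± 0.07 with VPA and 6.88 ± 0.02 in control, with all VPA values below the controls and an adjusted p of 0.417.

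All 3 genes of DNA repair and nucleotide supply had a higher mean with VPA, and Ddb2 was the 1 that passed. Polk, which encodes the translesion DNA polymerase kappa, had log2 values of 10.27, 10.41 and 10.16 in VPA arrays and 9.63, 10.14 and 9.93 in control arrays. The lowest VPA value, that of replicate 3, was 0.0158 above the highest control value, that of replicate 2. The difference was 0.38 (SE 0.133, limma adjusted p = 0.173). Rrm2b, the p53-inducible subunit of ribonucleotide reductase that supplies nucleotides for repair, had values of 8.67, 8.90 and 8.70 in VPA arrays and 8.51, 8.85 and 8.41 in control arrays. In both groups replicate 2 was the highest, the groups overlapped and the difference was 0.17 (SE 0.125, adjusted p = 0.499).

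Of the 6 measured genes of metabolism and autophagy, Dram1 rose, 5 did not pass, and 5 of 6 had a higher mean with VPA. Sesn1, a sestrin that restrains the growth kinase complex mTORC1, had log2 values of 8.004, 7.891 and 7.910 in VPA arrays and 7.687, 7.689 and 7.671 in control arrays. The controls lay within 0.02 of each other and all VPA values were above them, by at least 0.20. The difference was 0.25 (SE 0.0804, interval 0.07 to 0.43), and limma's adjusted p was 0.141. Its paralog Sesn2 did not share this pattern, with 9.14, 9.20 and 9.04 in VPA arrays and 9.05, 9.52 and 8.999 in control arrays. Control replicate 2 was the highest of the 6, and the difference was -0.06 (SE 0.135, adjusted p = 0.84). Without that array the Sesn2 difference was 0.10. Tigar, a phosphatase that lowers glycolytic flux, had values of 8.56, 8.46 and 8.46 in VPA arrays and 8.23, 8.40 and 8.16 in control arrays. All VPA values were the higher ones, by 0.0632 over control replicate 2, and the difference was 0.23 (SE 0.0925, adjusted p = 0.22). Ephx1, the microsomal epoxide hydrolase, and Steap3, an endosomal ferrireductase, had differences of 0.14 and 0.08 and adjusted p of 0.698 and 0.673.

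None of the 8 measured genes of arrest and growth control passed limma's test, with 1 lower at an unadjusted p under 0.05, and 7 of them had a higher mean with VPA. Ckap2, a spindle protein of dividing cells, was the exception, with log2 values of 8.86, 8.92 and 9.19 in VPA arrays and 9.32, 9.18 and 9.52 in control arrays. VPA replicate 3 lay just above control replicate 2, so the groups overlapped. The difference was -0.35 (SE 0.119, interval -0.61 to -0.08, limma adjusted p = 0.167). Gadd45a, a stress sensor that inhibits the mitotic kinase CDK1, had values of 9.94, 9.79 and 9.71 in VPA arrays and 9.80, 9.63 and 9.41 in control arrays. Control replicate 1 lay above VPA replicates 2 and 3, and the difference was 0.20 (SE 0.116, adjusted p = 0.402). Btg2, an antiproliferative gene whose product promotes deadenylation of messenger RNA, averaged 9.88 ± 0.06 with VPA and 9.73 ± 0.05 in control (SD, n = 3 each), with separate groups and an adjusted p of 0.394.

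The polo-like kinase genes Plk3 and Plk2 had the widest spread of the members within the VPA group. Plk3 had log2 values of 9.35, 9.34 and 8.71 and Plk2 values of 12.35, 12.52 and 11.84 in VPA replicates 1, 2 and 3. Control values were 9.05, 9.02 and 8.62 for Plk3 and 12.18, 12.33 and 11.92 for Plk2. In both genes replicate 3 was the lowest of its group with VPA and in control, and the differences were 0.23 (SE 0.182, limma adjusted p = 0.53) and 0.10 (SE 0.173, adjusted p = 0.801). Ccng1, the cyclin G1 gene whose product recruits a phosphatase to Mdm2, differed by 0.14 (adjusted p = 0.566). Zmat3, an RNA-binding regulator of splicing, differed by 0.07 (adjusted p = 0.777). Sfn, the 14-3-3 sigma gene, had 2 probe sets, which both gave a difference of 0.03 (adjusted p = 0.868 for the one kept).

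Of the 10 genes of cell death none passed limma's test, with Tnfrsf10b higher and Pmaip1 lower at an unadjusted p under 0.05, and 7 had a higher and 3 a lower mean with VPA. The BH3-only gene Pmaip1, which encodes the mitochondrial death activator Noxa, had log2 values of 6.49, 6.13 and 6.35 in VPA arrays and 6.65, 6.59 and 6.71 in control arrays. All VPA values lay below the controls, by at least 0.10, and the difference was -0.33 (SE 0.105, interval -0.56 to -0.09, limma adjusted p = 0.141). Tnfrsf10b, the mouse receptor of the death ligand TRAIL, had values of 7.58, 7.75 and 7.51 in VPA arrays and 6.90, 7.44 and 7.40 in control arrays. The groups did not overlap, control replicate 1 stood well below the other controls, and the difference was 0.37 (SE 0.145, adjusted p = 0.222). Without control replicate 1 the difference was 0.19.

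Control replicate 1 was also the low array in Trp53inp1, whose product enhances p53's action on death genes, and in Ei24, which encodes a protein of the endoplasmic reticulum. Trp53inp1 had log2 values of 11.17, 11.39 and 11.11 in VPA arrays and 10.69, 11.30 and 11.01 in control arrays, and Ei24 had 10.33, 10.25 and 10.18 in VPA arrays and 9.67, 10.19 and 10.28 in control arrays. The differences were 0.22 (limma adjusted p = 0.459) and 0.21 (adjusted p = 0.481), and without control replicate 1 they were 0.07 and 0.02. Apaf1, the scaffold of the apoptosome, Aen, an apoptosis-enhancing nuclease, Perp, a desmosomal membrane protein, and Eda2r, a receptor of ectodysplasin, differed by 0.07, 0.09, 0.03 and 0.01. Phlda3, which restrains the kinase Akt, and Pidd1, the scaffold of the PIDDosome, differed by -0.15 and -0.04. These 6 genes had adjusted p from 0.488 to 0.979. Their 95% intervals reached from -0.40 to 0.31.

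**Figure D2:**
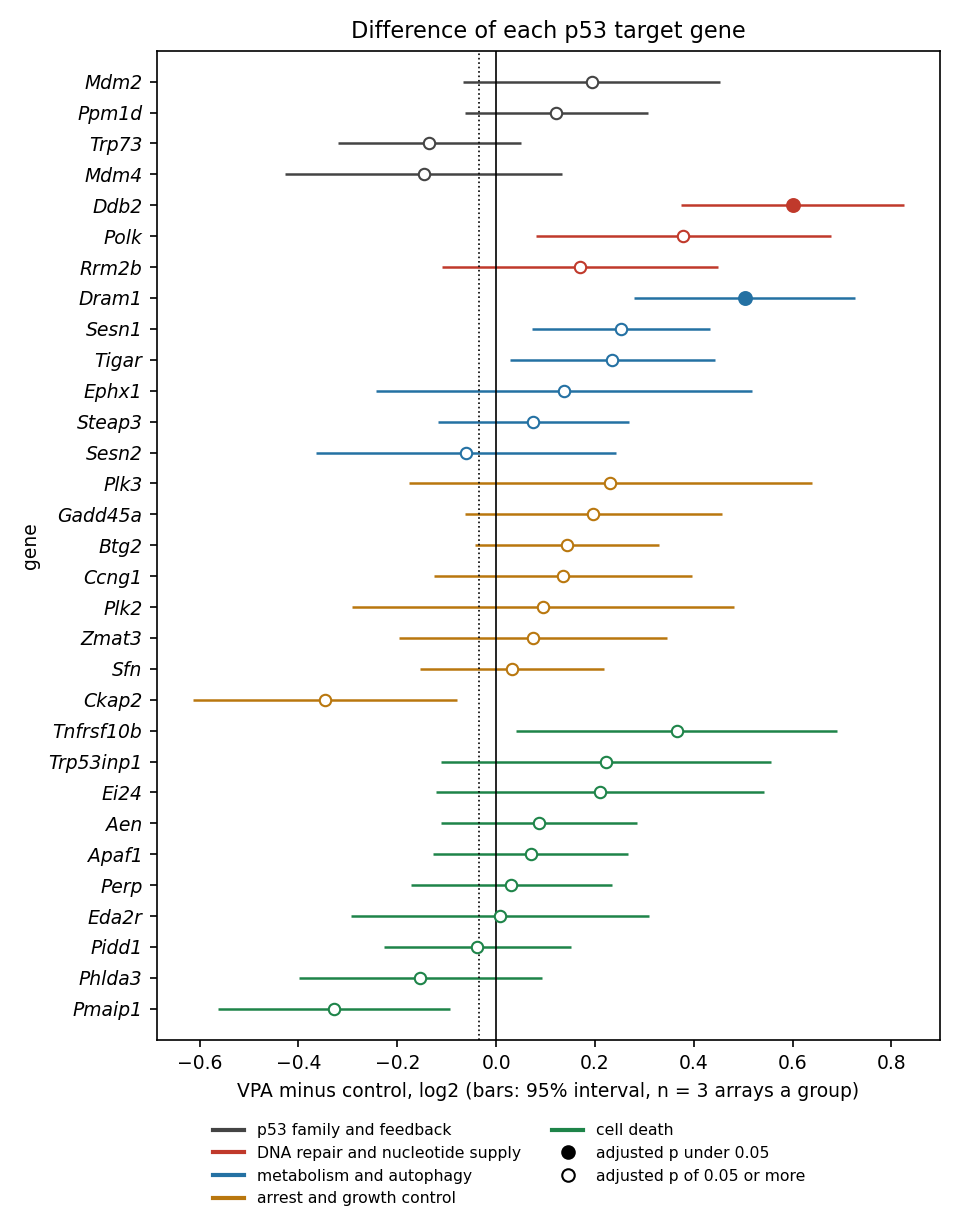
VPA minus control difference of each of the 31 p53 target genes on the log2 scale, with its 95% interval (n = 3 arrays a group), ordered by role and colored likewise. Filled points, Ddb2 and Dram1, had an adjusted p under 0.05, and the dotted line is the median over all genes, -0.035.

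As a group, 24 of the 31 genes had a higher mean with VPA, against 41.4% of all genes. Their median difference was 0.12, from -0.35 for Ckap2 to 0.60 for Ddb2, against a median of -0.035 over all genes. The members had a median level of 9.16, against 7.59 over all genes. Among genes with log2 values of at least 6 in at least 3 arrays, 45.4% had a higher mean with VPA and the median was -0.019. Of 62 further p53 targets described below, with a median level of 9.09, 45.2% had a higher mean and the median difference was -0.02. In 8 of the 31 members all VPA values lay above all control values, where 11.1% of all genes did so. In 2 members, Pmaip1 and Trp73, they lay below, where 12% did, or 23.1% in either direction. At an unadjusted p under 0.05, 6 members were higher and 2 lower, against 9.82% and 8.3% of all genes. In either direction that share was 18.1% of all genes, and 21.6% of those with log2 values of at least 6 in at least 3 arrays. No member reached a 2-fold change. The members were picked with earlier results of these arrays known, so these counts describe the list and test nothing.

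**Figure D3:**
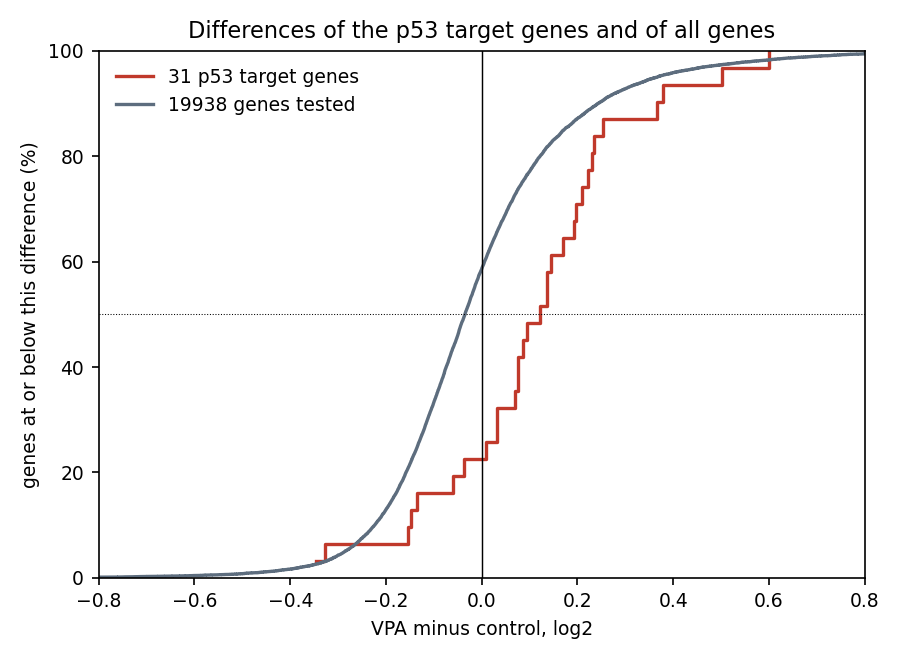
Cumulative share of genes, in percent, against the VPA minus control difference on the log2 scale for the 31 p53 target genes and for all 19938 genes tested. The curve of the p53 target genes lies to the right of that of all genes over most of the range, with medians of 0.12 and -0.035, and 99.3% of all genes lie within the axis limits of -0.8 and 0.8.

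The shift was not shared evenly by the arrays. Relative to each gene's mean over the 6 arrays, the members averaged 0.07, 0.09 and 0.003 in VPA replicates 1, 2 and 3, against -0.12, 0.05 and -0.10 in control replicates 1, 2 and 3. Control replicate 2 thus lay above VPA replicate 3. It was the highest of the 3 controls in 20 of the 31 members, against 33% of all genes, and VPA replicate 3 was the lowest of the 3 VPA arrays in 17, against 32.5% of all genes. The genes of repair and nucleotide supply were the most separated, at 0.16, 0.32 and 0.10 in VPA and -0.32, 0.03 and -0.28 in control arrays. Over all probe sets, VPA replicate 3 correlated at 0.9920, 0.9924 and 0.9924 with control replicates 1, 2 and 3. With VPA replicates 1 and 2 it correlated at 0.9918 and 0.9915.

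Without control replicate 2 the median difference of the members was 0.19, against -0.045 over all genes, 13 members had all VPA values above all controls, where 17.8% of all genes did so, and 3 had them below, where 24.1% did. The 5 members that joined above were Ccng1, Mdm2, Rrm2b, Trp53inp1 and Zmat3, and Ckap2 joined below. Leaving out another array instead gave 8 to 11 members above and 2 to 4 below. Of all genes, 13.2% to 17.8% were then above and 14.4% to 21.7% below. Without control replicate 2 there were 12 members rather than 8 at an unadjusted p under 0.05, against 21.9% of all genes. Ddb2 alone passed the adjusted test there. The 8 became 5 without VPA replicate 1 (13.7% of all genes), 5 without VPA replicate 2 (12.2%), 9 without VPA replicate 3 (20.7%), 6 without control replicate 1 (12.6%) and 7 without control replicate 3 (14.2%). The SD was larger in control for 18 of the 31 members (58.1%), near the 51.7% of all genes, with a median SD over the members of 0.105 in VPA and 0.17 in control arrays. Over all genes the median SDs were 0.11 and 0.114.

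**Figure D4:**
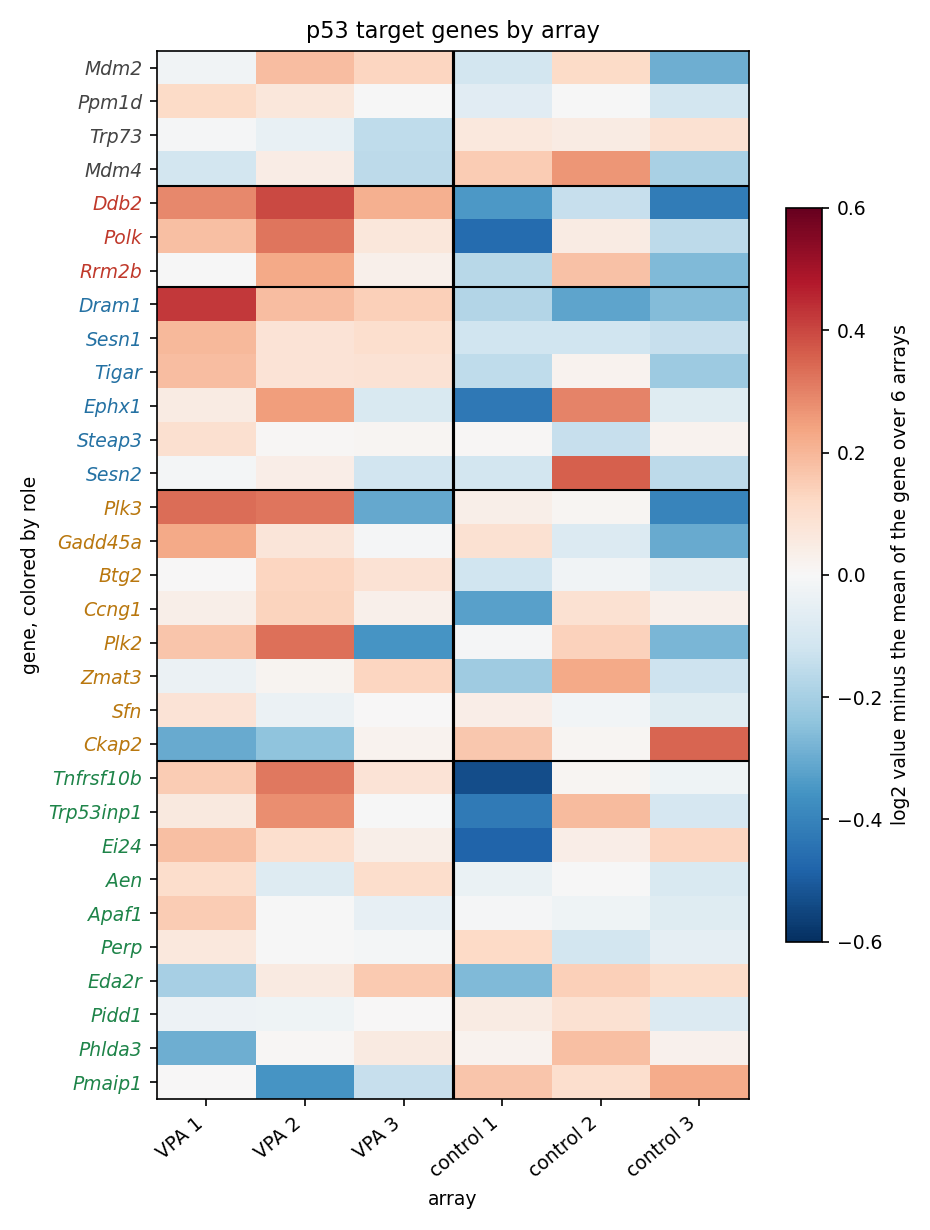
Log2 value of each of the 31 p53 target genes in each array minus the gene's mean over the 6 arrays, with the VPA arrays left of the control arrays and the genes grouped by role. Control replicate 2 is redder than the other controls in many members, and control replicate 1 is the bluest array for Polk, Ephx1, Tnfrsf10b, Trp53inp1 and Ei24.

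The genes that act on p53 were described from a separate list of 35, of which 32 were measured. Chek2, the checkpoint kinase that phosphorylates p53 after DNA breaks, rose, and the other 31 did not pass, with 4 higher and 4 lower among the 32 at an unadjusted p under 0.05. Each of these counts is 12.5% of the list, near the 9.82% higher and 8.3% lower of all genes. The 1 gene that rose is 3.12% of the list, against 1.71% of all genes. Chek2 had log2 values of 11.42, 11.40 and 11.33 in VPA arrays and 10.89, 10.98 and 10.99 in control arrays. The groups were well apart, with a difference of 0.43 (SE 0.081) or 1.35-fold and a limma adjusted p of 0.0304. The call ended without VPA replicate 1 or 2 (adjusted p 0.121 or 0.118) and without control replicate 1 or 3 (0.133 or 0.0872). Chek1, the partner kinase of the replication checkpoint, differed by -0.14 (adjusted p = 0.513), and Cdkn2a, the locus of the Mdm2 inhibitor p19Arf, by 0.20 (adjusted p = 0.377).

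Among the regulators that did not pass, the smallest p belonged on the higher side to Ppp1r13b and Trp53bp2, which encode the p53-binding proteins ASPP1 and ASPP2, and to Trp53bp1, the 53BP1 gene of double-strand break repair. They differed by 0.39, 0.31 and 0.35 (limma adjusted p 0.0995, 0.148 and 0.113), and in all 3 the groups did not overlap. On the lower side stood the acetyltransferase genes Kat2b and Crebbp, whose products acetylate p53, and the ubiquitin and SUMO ligase gene Topors. They differed by -0.35, -0.24 and -0.30 (adjusted p 0.0949, 0.182 and 0.13), again without overlap. As these genes were picked by their p, their separate groups are no further result. Of the 32 regulators, 5 had all VPA values above all controls (15.6%) and 4 had them below (12.5%). The shares over all genes were 11.1% and 12%. The median difference of the 32 regulators was 0.03, and 17 of them (53.1%) had a higher mean with VPA, against 41.4% of all genes.

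A further list held 68 reported p53 targets, of which 62 were measured. Cyfip2 rose, Lif fell and 60 did not pass. Cyfip2, a subunit of the WAVE complex that steers actin assembly, had log2 values of 8.94, 8.52 and 8.56 in VPA arrays and 7.85, 7.88 and 7.81 in control arrays. All VPA values were above the controls, and the difference was 0.83 (SE 0.118) or 1.77-fold (limma adjusted p = 0.0139). Lif, a cytokine gene that p53 is known to control in the mouse uterus, had values of 7.54, 7.73 and 7.45 in VPA arrays and 8.75, 8.72 and 8.31 in control arrays. All VPA values were below the controls, and the difference was -1.02 (SE 0.132, adjusted p = 0.00993). The Cyfip2 call ended without control replicate 1 or 3 (0.0659 or 0.0541), and the Lif call without control replicate 1 (0.0515).

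Fas, the death receptor, differed by 0.24 (SE 0.0959, limma adjusted p = 0.228) with groups that did not overlap, and Bbc3, the gene of the death activator Puma, by -0.05 (adjusted p = 0.83). The next smallest p on the higher side belonged to the phosphatase gene Dusp14, the kinase gene Dyrk3 and the zinc finger gene Zfp365, which differed by 0.75, 0.34 and 0.34 (adjusted p 0.0692, 0.106 and 0.127). On the lower side they belonged to the TNF receptor family gene Tnfrsf26, to Casp1, the caspase that matures interleukin-1 beta, and to Bak1, a pore former of the outer mitochondrial membrane. They differed by -0.42, -0.73 and -0.31 (adjusted p 0.0675, 0.122 and 0.138), and of these 6 genes the groups overlapped in Casp1. Dusp14 passed without VPA replicate 3 or control replicate 2 (0.0119 or 0.0457), Tnfrsf26 without VPA replicate 3 (0.0386) and Casp1 without VPA replicate 2 (0.0418). The median difference of the 62 genes was -0.02, and 28 of them (45.2%) had a higher mean with VPA, against 41.4% of all genes. In 8 (12.9%) all VPA values lay above all controls and in 5 (8.06%) below, against 11.1% and 12% of all genes. Cdkn1a, the gene of the cell cycle inhibitor p21, and Bax were in this list without a probe set of 1 symbol and were not analysed here.

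**Figure D5:**
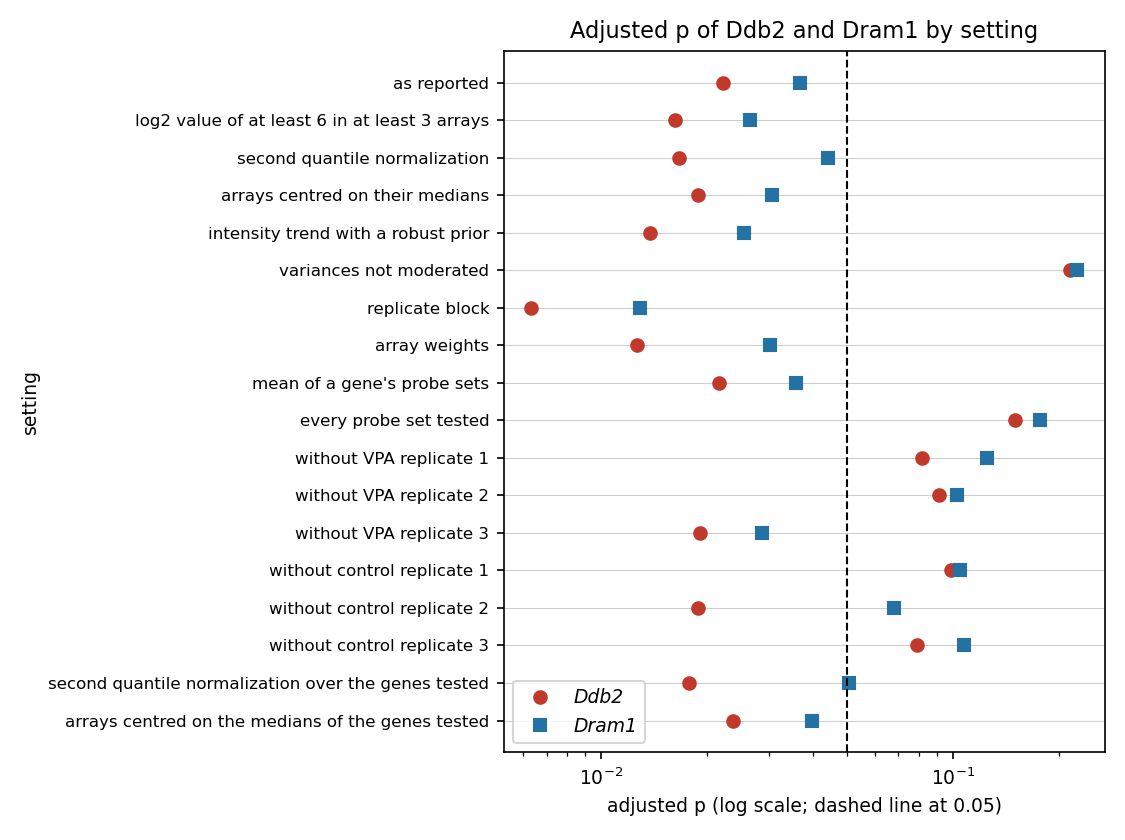
Limma's adjusted p of Ddb2 and Dram1 on a log axis for the analysis as reported and for 17 other settings, with a dashed line at the threshold of 0.05. Ddb2 lies left of the line in 11 and Dram1 in 9 of the 17, and both lie right of it with variances not moderated, with every probe set tested and without VPA replicate 1 or 2 or control replicate 1 or 3.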

How the data were processed

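Per the submitters' processing notes, the authors deposited RMA values on the log2 scale from Affymetrix Expression Console. For versions and the genome build nothing is given there. RMA brings the probe intensities of the arrays to one distribution before combining them into probe set values, which can still differ in distribution. It leaves no detection call. The 6 arrays held 35556 probe sets, with medians from 7.15 to 7.18, and 3 arrays a group limit the precision (median SE 0.101). The platform annotation gave 1 gene symbol for 21789 probe sets and several for 1621, and did not list 12146. Looking symbols up in RefSeq (GRCm38.p6) by Entrez identifier changed 0.

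Groups and replicate numbers came from the titles. The difference was tested with limma 3.58.1 (lmFit, eBayes; R 4.3.3), two-sided, with the group as the only term and Benjamini-Hochberg adjustment over 19938 genes. The code was tested on simulated data. Alternatives changed the filter, scaling, variance model, probe sets and arrays used. The text names all measured members and, from the 2 further lists, the called genes, the 3 with the smallest p in each direction among those with an unadjusted p under 0.05, and Cdkn1a, Bax, Bbc3, Fas, Cdkn2a, Chek1 and Chek2. Members and lists were chosen with earlier results of these data known.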

Additional observations from a re-analysis of the deposited data

How the results depend on the processing

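The number of genes changed was 467 as reported, 0 with variances not moderated (2898 at an unadjusted p under 0.05), 2 with every probe set tested (4372 unadjusted), 1199 with the replicate block and 714 with array weights, and leaving out single arrays gave 20 to 815. The number of p53 target genes higher with VPA was 2 as reported, 0 with variances not moderated, 0 with every probe set tested (7 members at an unadjusted p under 0.05 under either setting), 0 to 2 without single arrays and 1 with a second quantile normalization over the genes tested, an alternative chosen after seeing the data. That setting put Dram1 at an adjusted p of 0.0506. The number lower was 0, and 1 with the replicate block, where Ckap2 had an adjusted p of 0.0493. The replicate block also brought Dusp14, Tnfrsf26, Casp1, Ppp1r13b, Kat2b, Dyrk3 and Zfp365 past the threshold (0.00632, 0.0216, 0.03, 0.039, 0.0404, 0.0458 and 0.0495), as did array weights for Dusp14 (0.0386) and an intensity trend for Tnfrsf26 (0.0442). In deviations from the group means, each VPA array correlated best with its same-numbered control, at 0.0841, 0.451 and 0.284. Control replicate 1, however, correlated best with VPA replicate 3, at 0.2. The labels name replicates and not pairs, so the reported test left the replicate numbers out. Whether these numbers mark pairs was not settled. The median difference of the members stayed positive in all 17 settings and ran from 0.09 to 0.19 without single arrays, with 21 to 24 members positive over all settings.

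Signs turned in small differences that never passed. Leaving out single arrays gave -0.16 to 0.10 for Sesn2, -0.014 to 0.21 for Zmat3, -0.017 to 0.10 for Perp, -0.046 to 0.29 for Plk2, -0.12 to 0.11 for Eda2r, -0.043 to 0.32 for Ephx1, -0.0011 to 0.060 for Sfn and -0.14 to 0.00036 for Bbc3. Eda2r was also at -0.014 with a second quantile normalization, -0.029 with that over the genes tested and -0.012 with arrays centred on the medians of the genes tested, and Bbc3 was at 0.0086 with quantile normalization over the genes tested. The cause was not tested.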
